A study of Mus musculus with 4 samples.

Results

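The Sox4 and Sox9 loci are a pair of small tiled intervals on a custom array, and they were examined for nuclear RNA in neural progenitor cells (NPC) and in the embryonic stem cells (ESC) from which these were made. Members were all non-control probes placed between 29030001 and 29060000 on chromosome 13 for Sox4, or between 112630001 and 112660000 on chromosome 11 for Sox9 (mm9 coordinates). This gave 171 probes for Sox4 and 229 for Sox9, together 400 of the 48316 non-control probes of the array. The probes are 60 bases long with a median spacing of 60 bases. They ran from 29038235 to 29052781 at Sox4 and from 112632643 to 112652173 at Sox9, and no probe of either tile lay outside the stated limits.

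Nuclear RNA had been prepared from NPC (2 arrays, NPC 1 and NPC 2), made with the N2B27 protocol, and from undifferentiated ESC grown in GMEM with supplement (2 arrays, ESC 1 and ESC 2). Both groups were of the 46c line, a mouse ESC line with a fluorescent reporter in the Sox1 gene that lights up on neural commitment. N2B27 is a serum-free medium in which mouse ESC turn into neural cells. The labels name no sort of the NPC, no DNase step and no separate cultures behind the arrays of a group. The p-values below thus cover the spread between these 4 arrays, and that spread may be technical alone.

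Sox4 and Sox9 encode transcription factors with an HMG box, the DNA-binding domain shared by the SOX family. Sox4 belongs to the SoxC group, which acts in newly forming neurons and in many other developing tissues, and its gene has no introns. Sox9 belongs to the SoxE group, which acts in neural stem cells and glia, in cartilage and in testis, and its gene has introns. Neither is a factor that defines ESC, in contrast to Sox2 of the SoxB1 group.

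The gene body was taken as 29040000 to 29045000 for Sox4 and as 112643000 to 112649000 for Sox9, which are approximate limits given with the choice of probes and not read from an mm9 annotation. Their lengths, 5000 and 6000 bases, lie near the gene lengths of 4781 bases for Sox4 and 5548 bases for Sox9 in the RefSeq gene table of GRCm38. All other probes of each locus formed a left flank, at lower coordinates, and a right flank, at higher coordinates. Exons, introns and untranslated regions could not be placed on probes. In the GRCm38 table the gene order around Sox4 is the long non-coding RNA genes Gm46405 and Gm46406, then Sox4, then the non-coding Gm52067. Gm46405 overlaps Sox4 and runs on the same minus strand, so RNA of Sox4 and of Gm46405 cannot be told apart there. The neighbours of Sox9 in that table, BC006965 and Gm11681, are non-coding genes that do not overlap it. Labelling by random priming kept no strand.

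The promoter of Sox4 is shown because it fixes the direction in which the profile of the gene is read. The gene lies on the minus strand, so the transcript starts toward the right end of its body. The sequence, from RefSeq, covers chr13:28953650-28953949 of GRCm38.p6 on the minus strand, from 5′ to 3′, with matches to CCAAT or its reverse complement ATTGG in capitals.

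Sox4 promoter: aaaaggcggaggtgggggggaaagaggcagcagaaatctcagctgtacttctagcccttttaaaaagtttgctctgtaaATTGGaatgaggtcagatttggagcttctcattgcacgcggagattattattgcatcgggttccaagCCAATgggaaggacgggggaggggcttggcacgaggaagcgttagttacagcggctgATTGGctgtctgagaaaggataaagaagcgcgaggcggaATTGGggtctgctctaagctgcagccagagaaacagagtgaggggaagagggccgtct

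The CCAAT motif, a common promoter element, had 4 matches in these 300 bases, counted on both strands and with no overlap between them. At least 1 match was present in 37.4% of the 32851 promoter windows of this length in the table, and 4 or more in 1.06%. The GC box GGGCGG, the TATA box TATAAA and the SOX-type motif AACAAT had no match on either strand in this window, and they were found in 35.7%, 13.6% and 10.7% of all windows. These matches describe letters only. Of the 2 genes, Sox4 was matched by symbol in the promoter table. The tables used here give no strand for Sox9. From general knowledge of the gene it is transcribed toward higher coordinates, which would put its start at the left end of its body.

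Over the whole array the scanner software marked 54.1% and 54.3% of the probes as well above background in NPC 1 and NPC 2, against 42.5% and 44.6% in ESC 1 and ESC 2. Negative control spots passed that mark at 1.93% on average. Values are log2 spot intensity minus the 75th percentile of each array, taken over those probes that carry this mark on each of the 4 arrays. Over the 394 probes of both loci free of outlier marks, Spearman coefficients were 0.834 for the NPC pair and 0.907 for the ESC pair, and 0.763 to 0.893 between groups. These are across probes, which are not independent. All 4 arrays lay on 1 slide with 1 scan. No ESC or NPC marker gene was placed on mm9 here, so the cell type labels were not checked against markers.

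Signal of nuclear RNA samples over the Sox4 body was above background in both cell types and lay higher in NPC, but this difference did not pass the test. The mean over the 48 probes of the body was -0.20 and 0.48 in NPC 1 and NPC 2, against -0.64 and -0.64 in ESC 1 and ESC 2 (log2 relative to the scaling percentile). The NPC arrays were both above the ESC arrays, with NPC 2 well above NPC 1 and the ESC arrays nearly equal. The group means were 0.14 ± 0.48 in NPC and -0.64 ± 0.0010 in ESC (SD, n = 2 each), a difference of 0.77 (SE 0.26) or 1.71-fold. In the limma fit over all 960 regions of the array the adjusted p was 0.0615 and the unadjusted p 0.0364. In bulk RNA, more cells of a type and more RNA per cell cannot be told apart.

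The body of Sox9 gave a difference of about the same size. Its 60 probes averaged -1.32 and -0.33 in NPC 1 and NPC 2, against -1.66 and -1.63 in ESC 1 and ESC 2. Again both NPC arrays lay above both ESC arrays, and NPC 2 lay farthest out. The group means were -0.83 ± 0.69 in NPC and -1.64 ± 0.021 in ESC (SD, n = 2 each), a difference of 0.82 (SE 0.35) or 1.76-fold, which did not pass (limma adjusted p = 0.109, unadjusted p = 0.0774).

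These counts stand against a background in which calls were frequent. Of the 960 regions, which are the 6 regions of the loci and the windows of 5 kb elsewhere, 22% were called higher and 30.3% lower in NPC (adjusted p under 0.05). Without the large tile on chromosome 12, where most windows were called higher in NPC, these shares were 6.06% and 36.6%. None of the 6 regions was called (at an unadjusted p under 0.05, only the Sox4 body passed). The median difference over all regions was -0.35, and 79.1% of the regions had a smaller difference than the Sox4 body, as did 79.3% for the Sox9 body. The background shares and the median moved with the scaling. With a percentile that leaves out the chromosome 12 tile, 23.5% of the 960 regions were called higher and 6.77% lower, at a median of -0.13. With the percentile over all probes these shares were 20.2% and 64.5%, at a median of -0.74. The choice of array mattered: the difference without NPC 1 was 1.11 for the Sox4 body and 1.31 for the Sox9 body. Without NPC 2 the differences were 0.43 and 0.32. With 1 NPC array left, the spread comes from the ESC pair alone, so no p-value is given for these fits.

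**Figure D1:**
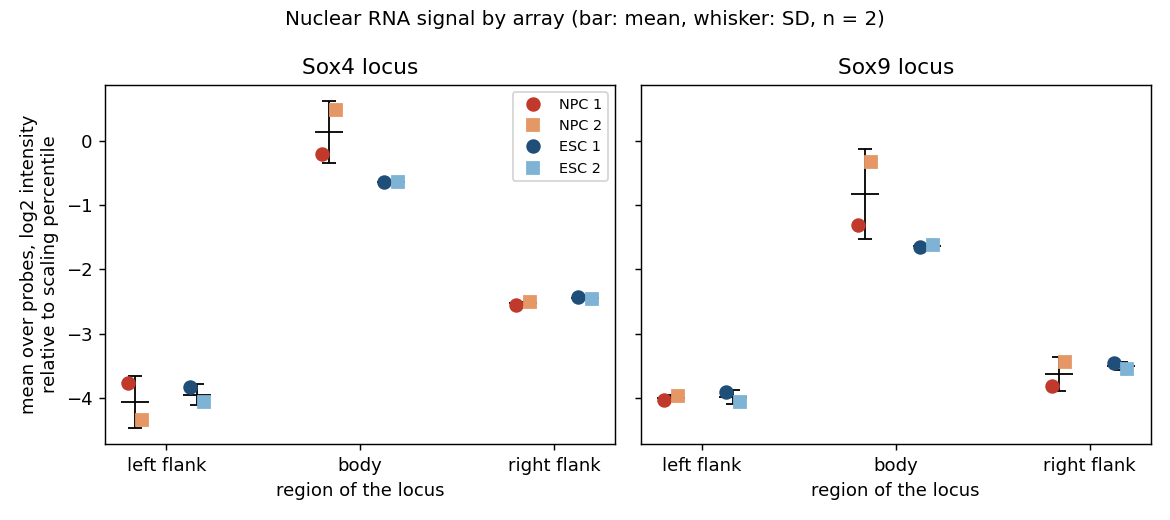
Mean over probes of log2 intensity relative to the scaling percentile, for the left flank, body and right flank of Sox4 and Sox9, with 1 point per array (NPC left of ESC) and bars for the mean with SD (n = 2). In both bodies the NPC points lie above the ESC points, which reach -0.64 and -1.63 at most, while the groups lie close together in the flanks.

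The flanks of Sox4 showed smaller differences than its body. The left flank, with 20 probes, stood at -3.77 and -4.35 in NPC 1 and NPC 2, against -3.83 and -4.07 in ESC 1 and ESC 2, a difference of -0.11 (SE 0.24, limma adjusted p = 0.701). The groups overlapped there. The right flank, with 100 probes, stood at -2.55 and -2.51 in NPC 1 and NPC 2, against -2.42 and -2.46 in ESC 1 and ESC 2. This gave a difference of -0.089 (SE 0.12, limma adjusted p = 0.547), with both NPC arrays slightly below both ESC arrays.

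Both flanks of Sox9 overlapped between the groups. The left flank of 130 probes was at -4.03 and -3.97 in NPC 1 and NPC 2, against -3.91 and -4.06 in ESC 1 and ESC 2, a difference of -0.014 (SE 0.13, limma adjusted p = 0.935). The right flank of 36 probes was at -3.82 and -3.44 in NPC 1 and NPC 2, against -3.46 and -3.54 in ESC 1 and ESC 2, a difference of -0.12 (SE 0.18, limma adjusted p = 0.567). The sign of the flank differences turned with the scaling: with a scaling percentile that leaves out the chromosome 12 tile all 4 were positive, between 0.092 and 0.20, and with the percentile over all probes all 4 were negative, between -0.51 and -0.40. The body differences stayed positive under every alternative that was run, from 0.37 to 1.11 for Sox4 and from 0.27 to 1.31 for Sox9.

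The share of probes well above background separated bodies from flanks on every array. In the Sox4 body it was 97.9% and 97.9% in NPC 1 and NPC 2, against 87.5% and 91.7% in ESC 1 and ESC 2. In the Sox9 body it was 86.7% and 91.7% in NPC 1 and NPC 2, against 73.3% and 78.3% in ESC 1 and ESC 2. Signal was thus above background over both gene bodies in ESC as well as in NPC. As the labels name no DNase step, a part from genomic DNA was not tested. The left flank of Sox4 had 55.0% in both NPC arrays, against 35.0% and 25.0% in ESC 1 and ESC 2, and its right flank had 72.0% and 78.0% in NPC 1 and NPC 2, against 64.0% and 65.0% in ESC 1 and ESC 2. For Sox9 the left flank had 36.9% and 46.2% in NPC 1 and NPC 2, against 34.6% and 31.5% in ESC 1 and ESC 2. Its right flank had 41.7% and 58.3% in NPC 1 and NPC 2, against 47.2% and 41.7% in ESC 1 and ESC 2. All 4 flanks were thus above the 1.93% of the negative controls. Over all probes the shares were 54.1% and 54.3% in NPC 1 and NPC 2, against 42.5% and 44.6% in ESC 1 and ESC 2. The right flank of Sox4 lay above these on each array and the left flank of Sox9 below them on each. The left flank of Sox4 lay below them in both ESC arrays, and the right flank of Sox9 in NPC 1 and ESC 2. The share rose in NPC over the whole array too, as given above.

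In windows of 1 kb next to the limits of the bodies, the step in the share well above background was of unlike size. At Sox4 the window just outside the left limit had 50% of its probes well above background on each NPC array, and the one just inside had 88.9% on each. In ESC 1 and ESC 2 these shares were 41.7% and 16.7% outside and 44.4% and 55.6% inside. On the right of Sox4 the signal did not stop at the limit: the window just outside still had 84.6% and 100% in NPC 1 and NPC 2, against 76.9% and 69.2% in ESC 1 and ESC 2. The window just inside had 100% in both NPC arrays, against 94.1% and 100% in ESC 1 and ESC 2. At Sox9 the shares just outside the left limit were 38.5% and 53.8% in NPC 1 and NPC 2, against 30.8% and 38.5% in ESC 1 and ESC 2, and just inside they were 70.0% on all 4 arrays. At the right limit of Sox9 the shares inside were 50% and 100% in NPC 1 and NPC 2, against 50% and 50% in ESC 1 and ESC 2. Just outside it they were 38.5% and 53.8% in NPC 1 and NPC 2, against 38.5% and 46.2% in ESC 1 and ESC 2.

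A second stretch of signal lay in the right flank of Sox4, toward the end of the tile. In the window from 29050001, the share well above background was 86.7% and 93.3% in NPC 1 and NPC 2, against 80.0% and 86.7% in ESC 1 and ESC 2. The next window, from 29051001, had 80.0% and 93.3% in NPC 1 and NPC 2, against 80.0% and 86.7% in ESC 1 and ESC 2. Between this stretch and the body, the window from 29047001 had 50% and 60% in NPC 1 and NPC 2, against 40.0% and 30.0% in ESC 1 and ESC 2. The differences over the stretch were -0.33 (SE 0.23, limma adjusted p = 0.290) and -0.26 (SE 0.26, limma adjusted p = 0.435), so the stretch was not called. On the gene table the neighbour on this side of Sox4 is Gm52067. Gm46405 begins at lower coordinates than Sox4 and overlaps it, and how far it reaches to the right was not read. No probe was matched to either.

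**Figure D2:**
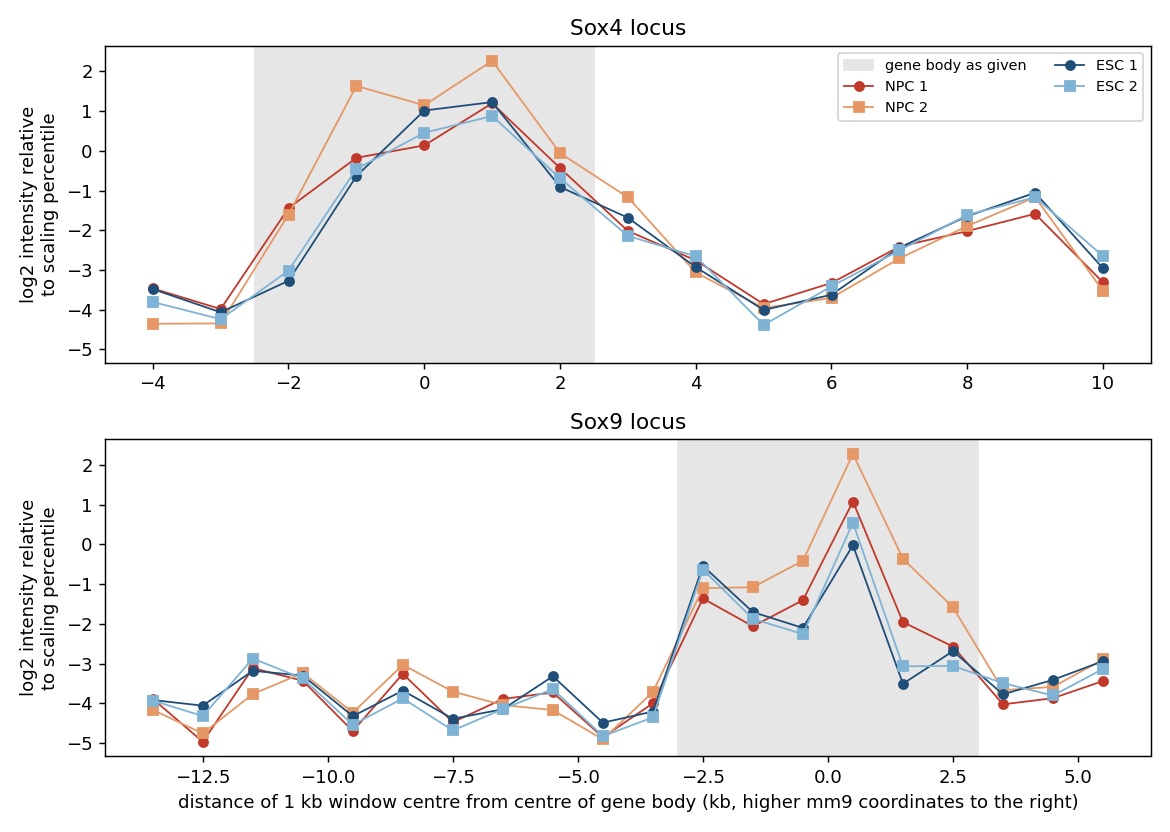
Mean log2 intensity relative to the scaling percentile in windows of 1 kb along each locus, 1 line per array, against the distance in kb from the centre of the gene body, shaded. The bodies stand out on all 4 arrays, NPC 2 lies highest over most of both bodies, and the 4 lines run together over the second stretch of signal right of Sox4.

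Within the Sox4 body the rise in NPC was clearest at its left end, which is the 3′ side of the gene. Where the transcript ends was not placed on probes. The window from 29040001 averaged -1.44 and -1.60 in NPC 1 and NPC 2, against -3.27 and -3.02 in ESC 1 and ESC 2. Both NPC arrays lay close together and far above both ESC arrays. The difference was 1.62 (SE 0.24), and the window was called in the limma fit over 4396 windows of 1 kb (adjusted p = 0.00497). In that fit 19.2% of the windows were called higher and 8.89% lower, and outside the chromosome 12 tile 5.22% and 10.9%. Of the 9 probes of the window from 29040001, 44.4% and 55.6% were well above background in ESC 1 and ESC 2, so the size is uncertain. The call was kept in 13 of 15 alternatives, at a smaller difference of 0.58 with normexp. It was lost with the median over probes (0.91, adjusted p = 0.113) and without ESC 1 (1.49, adjusted p = 0.0646).

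The other 4 windows of the Sox4 body were not called. The window from 29041001 had a difference of 1.28 (SE 0.57, limma adjusted p = 0.136), with -0.18 and 1.63 in NPC 1 and NPC 2, against -0.64 and -0.45 in ESC 1 and ESC 2, so that most of it came from NPC 2. The window from 29042001, in the middle of the gene, had -0.093 (SE 0.40, limma adjusted p = 0.860), and its groups overlapped. Toward the start of the transcript the windows from 29043001 and 29044001 had differences of 0.68 (SE 0.39) and 0.55 (SE 0.26), with limma adjusted p of 0.221 and 0.146. In the last of these, both NPC arrays, at -0.43 and -0.056, lay above both ESC arrays, at -0.91 and -0.69.

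The differences over the Sox9 body were uneven along its length. Its leftmost window, from 112643001, averaged -1.36 and -1.11 in NPC 1 and NPC 2, against -0.54 and -0.63 in ESC 1 and ESC 2. The NPC arrays were both lower here, with a difference of -0.65 (SE 0.24) that did not pass (limma adjusted p = 0.0901). This difference was below 0 in all 15 alternatives, from -1.75 to -0.36, and was called in 5 of them. The next window, from 112644001, had a difference of 0.22 (SE 0.36, limma adjusted p = 0.641), and its groups overlapped.

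From 112645001 on, the Sox9 windows lay higher in NPC. The window from 112645001 averaged -1.40 and -0.41 in NPC 1 and NPC 2, against -2.10 and -2.26 in ESC 1 and ESC 2, and it was called with a difference of 1.27 (SE 0.36, limma adjusted p = 0.0466). That call was kept in 7 of 15 alternatives. The window from 112646001, which holds the brightest probes of the body, averaged 1.08 and 2.28 in NPC 1 and NPC 2, against -0.021 and 0.54 in ESC 1 and ESC 2, a difference of 1.42 (SE 0.44) just short of a call (limma adjusted p = 0.0592). The window from 112647001 averaged -1.96 and -0.36 in NPC 1 and NPC 2, against -3.51 and -3.07 in ESC 1 and ESC 2. It had the largest difference of the 11 body windows of both genes, at 2.13 (SE 0.52, limma adjusted p = 0.0288). It was called in 12 of 15 alternatives. The 3 that lost it were normexp (0.96, adjusted p = 0.168), the fit without ESC 1 (1.91, adjusted p = 0.157) and the fit without ESC 2 (2.35, adjusted p = 0.101). The last window, from 112648001, had a difference of 0.80 (SE 0.38, limma adjusted p = 0.153).

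None of the 24 windows of 1 kb in the flanks was called in either direction (at an unadjusted p under 0.05, 1 was higher and 2 were lower). In the 2 flank windows of Sox4 on the left the differences were -0.26 and -0.012, and in the 8 on the right they ran from -0.62 to 0.32. In the 11 left flank windows of Sox9 they ran from -0.67 to 0.63, and in the 3 on the right from -0.21 to -0.12. The last stretch of the Sox9 tile, with 1 probe, was too short for a window.

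**Figure D3:**
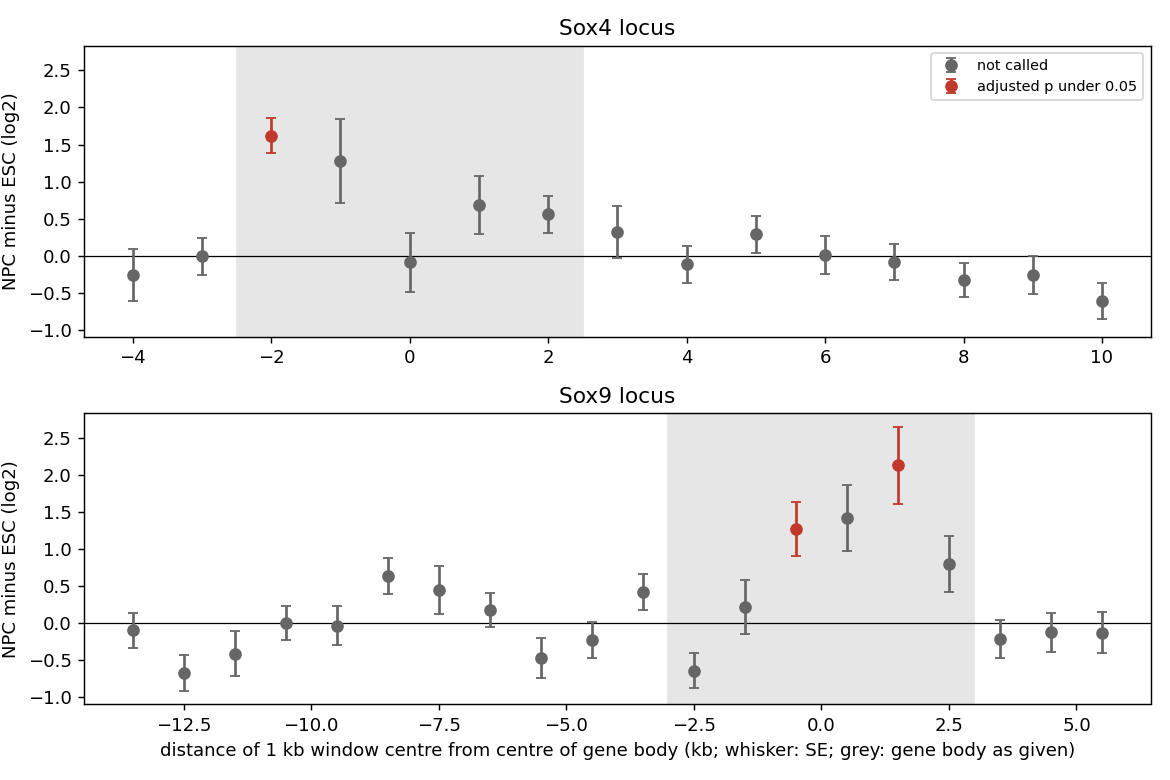
Difference of NPC minus ESC on the log2 scale in windows of 1 kb along each locus, with its SE, against the distance in kb from the centre of the gene body, shaded. The 3 called windows, at 1.62 in Sox4 and at 1.27 and 2.13 in Sox9, lie inside the bodies, toward the left end of Sox4 and in the right part of Sox9.

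Windows of 5 kb on a grid that the gene limits did not set gave no call in either locus among 9 windows, against 21.9% called higher and 30% lower over the 963 windows of the array (limma). Outside the chromosome 12 tile the shares, taken over regions, were 6.06% higher and 36.6% lower. At an unadjusted p under 0.05, 2 of the 9 windows were higher and 1 was lower. The window from 29040001, which holds the same 48 probes as the Sox4 body, was at 0.77. The Sox9 body falls across 2 windows of this grid. The one from 112640001, which is mostly left flank, was at -0.12 (SE 0.16, limma adjusted p = 0.534), and the one from 112645001 at 0.99 (SE 0.35, limma adjusted p = 0.0707).

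The contrast of body with flanks within each array does not depend on a constant that shifts a whole array. For Sox4 the body minus its flanks was 2.55 and 3.29 in NPC 1 and NPC 2, against 2.02 and 2.09 in ESC 1 and ESC 2. For Sox9 it was 2.67 and 3.52 in NPC 1 and NPC 2, against 2.16 and 2.32 in ESC 1 and ESC 2. These values mix probes of unlike brightness, so only their change between groups is read. The change was 0.87 for Sox4 and 0.85 for Sox9, with both NPC arrays above both ESC arrays in each. The exact two-sided permutation p was 0.333 for each, which is the smallest that 2 against 2 arrays can give. The contrast still depends on how dim probes are treated, as flank probes at the floor enter it. With a common floor the change was 0.81 for Sox4 and 0.77 for Sox9, and with normexp 0.53 and 0.37.

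Sox4 and Sox9 had differences of about the same size. The test here could not have told them apart, as 2 against 2 arrays give no p below 0.333. The Sox9 body minus the Sox4 body was -1.12 and -0.81 in NPC 1 and NPC 2, against -1.02 and -0.99 in ESC 1 and ESC 2. The change between groups was 0.042, less than the spread between the NPC arrays (SD 0.22), with an exact two-sided permutation p of 1. NPC 2 exceeded NPC 1 over both bodies at once, so the loci share the array that stands out and are not independent of each other in this respect.

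**Figure D4:**
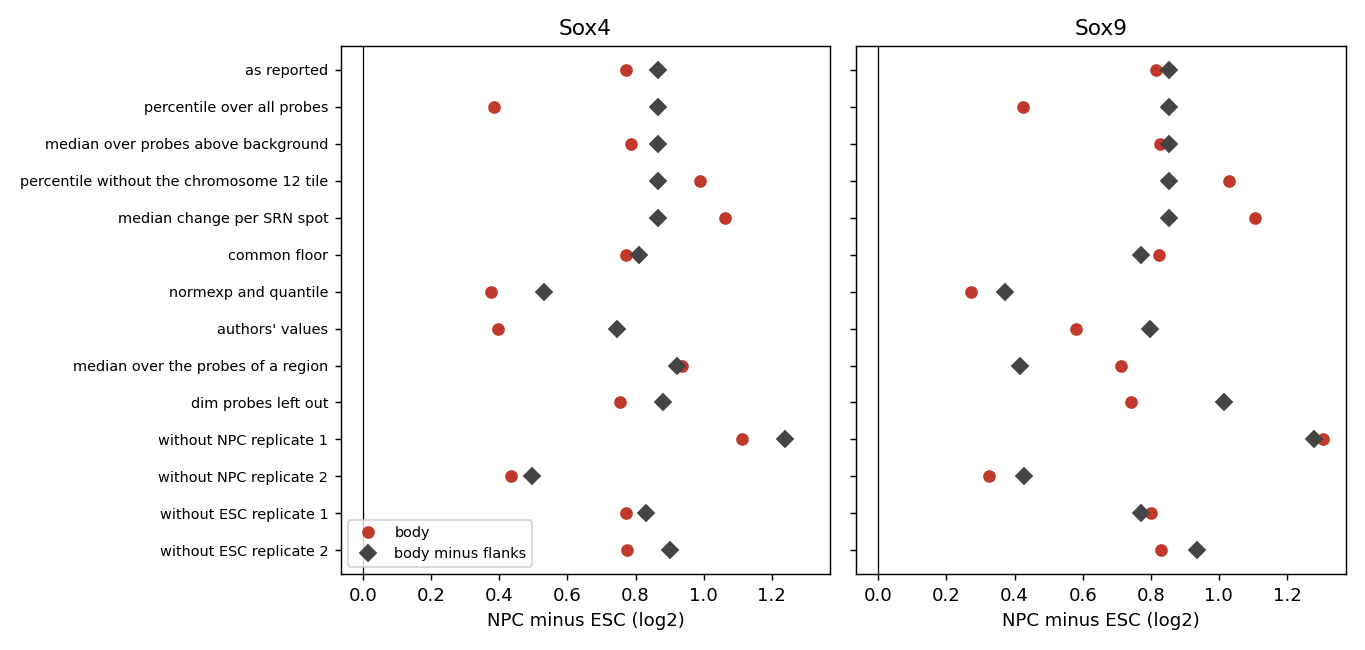
Difference of NPC minus ESC on the log2 scale for each body (circles) and for each body minus its flanks (diamonds), with 1 row for the values as reported and 1 for each alternative shown. All points lie above 0, the circles move with the scaling constant, and the diamonds stay at 0.87 and 0.85 where an alternative only shifts a whole array.

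Single probes pointed the same way in most of both bodies. Of the 48 probes of the Sox4 body 39 had a positive difference, and of the 60 probes of the Sox9 body 43 did, against 41.4% of all 47900 probes tested. In the flanks these counts were 57 of 120 for Sox4 and 67 of 166 for Sox9. Probes with both NPC arrays above both ESC arrays numbered 23 in the Sox4 body (47.9%) and 24 in the Sox9 body (40.0%), against 24.9% over the array and 14% outside the chromosome 12 tile. In the flanks they numbered 28 for Sox4 (23.3%) and 29 for Sox9 (17.5%). Probes with both NPC arrays below both ESC arrays numbered 4 in the Sox4 body and 7 in the Sox9 body, and 31 and 53 in their flanks, against 39.7% over the array and 47.1% outside the chromosome 12 tile. The scaled floor lies lower in NPC, at -6.02 and -6.31 in NPC 1 and NPC 2, against -5.72 and -5.83 in ESC 1 and ESC 2. A probe at the floor on all 4 arrays thus counts as below, with a difference of -0.39, from the scaling alone. Probes with the background mark on no array numbered 0 in the Sox4 body and 3 in the Sox9 body. They numbered 7 and 11 in the left and right flank of Sox4, and 58 and 14 in those of Sox9. Neighbouring probes read the same RNA, so these counts are descriptions and have no test.

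The limma fit over all 47900 probes called 10.7% higher and 1.59% lower, and outside the chromosome 12 tile 2.58% and 1.94%. In the Sox4 body 4 of 48 probes were called higher (8.33%), and in the Sox9 body 3 of 60 (5%). In neither body was a probe called lower (at an unadjusted p under 0.05, 1 was lower in Sox4 and 2 in Sox9). In the flanks 1 probe left of Sox4 was called higher, and 1 right of Sox4 and 1 left of Sox9 were called lower. The number of probes called higher in both loci, 8 here, was 0 with the authors' values, with 2 called lower. The share of all probes called with those values is not given.

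The brightest probe of the Sox4 body lay at 29043660-29043719. It read 2.49 and 4.06 in NPC 1 and NPC 2, against 2.24 and 2.03 in ESC 1 and ESC 2, a difference of 1.14 that was not called (SE 0.63, limma adjusted p = 0.386). Its neighbour at 29043540-29043599 read 1.79 and 2.89 in NPC 1 and NPC 2, against 2.31 and 2.12 in ESC 1 and ESC 2, with groups that overlapped and a difference of 0.12. The probe of the Sox4 locus with the largest called rise, at 29040635-29040694 in the leftmost window of the body, read -0.31 and -0.14 in NPC 1 and NPC 2, against -5.16 and -3.23 in ESC 1 and ESC 2. It was well above background on both NPC arrays and on 1 ESC array, and its difference was 3.97 (SE 0.74, limma adjusted p = 0.0469). That call was kept in 8 of 14 alternatives. Those that lost it include a common floor (3.97, limma adjusted p = 0.152) and the authors' values (1.84, limma adjusted p = 0.0857).

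In Sox9 the brightest probe lay at 112646576-112646635 and read 3.90 and 5.25 in NPC 1 and NPC 2, against 2.69 and 2.31 in ESC 1 and ESC 2. Both NPC arrays were above both ESC arrays, at a difference of 2.07 that was not called (SE 0.57, limma adjusted p = 0.119). The adjoining probe at 112646516-112646575 read 3.56 and 4.75 in NPC 1 and NPC 2, against 2.35 and 3.29 in ESC 1 and ESC 2, a difference of 1.34. The largest called rise was at 112647334-112647393, with -1.56 and 0.61 in NPC 1 and NPC 2, against -5.20 and -5.31 in ESC 1 and ESC 2. This probe was not well above background on either ESC array, so a bound is given, which holds for this processing only. The mean of the 2 NPC arrays, which lay far apart, was at least 7.83-fold higher than in ESC. The call was made on the difference without the bound, 4.78 (SE 0.82, limma adjusted p = 0.0384). It was kept in 9 of 14 alternatives. Those that lost it include a common floor (4.78, limma adjusted p = 0.138), normexp (1.55, limma adjusted p = 0.249) and the authors' values (4.22, limma adjusted p = 0.0603). The bound sets each ESC array at its lowest signal among probes well above background.

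Both called falls were of probes that were not well above background in either group. The calls were kept in 8 of 13 alternatives at the Sox4 locus and in 7 of 13 at the Sox9 locus. The probe at 29049047-29049106 in the right flank of Sox4 read -6.02 and -6.31 in NPC 1 and NPC 2, against -3.75 and -4.11 in ESC 1 and ESC 2. The probe at 112633546-112633605 in the left flank of Sox9 read -6.02 and -6.31 in NPC 1 and NPC 2, against -4.11 and -3.50 in ESC 1 and ESC 2. The NPC values of both probes are the floor that the scanner software sets on each array, so no fold is given.

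The windows outside both loci whose 4 values ran most like those of the Sox4 body lay on chromosome 2 from 74570001 and from 74580001 and on chromosome X from 58140001. They were chosen among 537 windows of 5 kb with at least 50% of their probes well above background in either group, by the Euclidean distance between values centred on their own mean, which was 0.18, 0.19 and 0.21 over the 4 arrays. Their differences were 0.75, 0.73 and 0.62. For the Sox9 body the most like windows lay on chromosome 5 from 102085001, on chromosome 7 from 149835001 and on chromosome 2 from 74565001, at distances of 0.26, 0.28 and 0.29 and with differences of 0.59, 0.84 and 1.07. With 4 arrays in 2 groups, likeness of this kind says little more than that NPC 2 lay above NPC 1 and both above the ESC arrays.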

How the data were processed

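Each of the 4 samples was hybridised to 1 custom Agilent tiling array in 1 colour (Cy3) after whole transcriptome amplification of nuclear RNA, per the labels. Spot intensity came from the deposited scanner output of Agilent Feature Extraction 11.5.1.1, in which the background was subtracted and low intensity was raised to a floor per array, per the file headers. Arrays were not normalized to each other there, and the design is on mm9. Marks of spots well above background, saturated or outlying (unit other, yes or no) come from the same program, per the file headers. The authors' deposited value table is on a log2 scale as judged from its values. Limma is named in the submitters' processing notes, but how it was normalized, centred and filtered is not given in the sources used here. It served only as an alternative.

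From these files, control spots and the 416 probes marked as outliers on any array were left out, which left 47900 probes (394 of the 400 members). No member was saturated. The scaling percentile used only probes with the background mark on every array because 48.9% of all probes passed it, under 50%. Values were averaged per array over the probes of a region, over windows of 5 kb with at least 5 probes, or over windows of 1 kb with at least 3. Differences are NPC minus ESC, from limma 3.58.1 in R 4.3.3 (lmFit, eBayes, group as the single term) with Benjamini-Hochberg adjustment over all regions, windows or probes of the array. The number of arrays limits the precision. Dim probes at the floor make sizes uncertain.

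The members, the regions and the alternatives were chosen with earlier results of these data known. Named were all 1 kb windows of the bodies and those next to their limits, the 2 brightest probes of each body, the probes with the largest called rise and fall in each locus, and the 3 windows most like each body; windows of the second stretch of signal right of Sox4 were chosen after their values were seen. Replicate numbers were shared by both groups, but deviations of same-numbered arrays did not run together (Pearson 0.044 over 963 windows), so no pairing was used. The normexp alternative used median in place of mean spot signals, with an offset of 50. Plots used matplotlib 3.10.9 under Python 3.11.15.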

Additional observations from a re-analysis of the deposited data

How the results depend on the processing

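The body differences were positive in all 17 alternatives. For the changes that follow, the cause was not tested. The Sox4 body was called when scaled by the median change of control spots named SRN (1.06), without the chromosome 12 tile (0.99), with the median over probes (0.94) and under the replicate block (0.77, adjusted p = 0.0391); the block also called the Sox9 body (0.82, adjusted p = 0.0499) and 2 windows of 5 kb, with 2 probes higher and 0 lower. Leaving out 1 array at a time gave 0.43 to 1.11 for the Sox4 body, 0.32 to 1.31 for the Sox9 body, 0.50 to 1.24 and 0.43 to 1.28 for body minus flanks, and -0.11 to 0.19 for Sox9 minus Sox4. It gave -0.40 to 0.17 and -0.11 to -0.071 for the left and right flank of Sox4, -0.087 to 0.059 and -0.31 to 0.065 for those of Sox9, 0 to 3 windows of 5 kb higher and 0 to 1 lower, 0 to 10 windows of 1 kb higher and 0 to 1 lower, and 2 to 50 probes higher and 1 to 27 lower. Such fits let the group with 1 array take its spread from the other.

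Lower flanks were called with the percentile over all probes (Sox4 left -0.50 and right -0.48, Sox9 right -0.51) and, right of Sox4, with normexp (-0.16). Flank signs turned, left and right of Sox4 and left and right of Sox9, without the chromosome 12 tile (0.10, 0.13, 0.20, 0.092) and with SRN spots (0.18, 0.20, 0.28, 0.17). The left flanks of Sox4 and Sox9 turned with a common floor (0.035, 0.082) and the median over probes (0.64, 0.32; right of Sox9 0.020), and left of Sox4 without dim probes (0.0096). Left of Sox4 was at 0.0039 without ESC 1 and 0.17 without NPC 2, left of Sox9 at 0.059 without ESC 1 and 0.016 without NPC 1, and right of Sox9 at 0.065 without NPC 1. Sox9 minus Sox4 was -0.10 with normexp, -0.012 without dim probes, -0.22 with the median over probes and -0.11 without NPC 2. Body minus flanks of Sox9 was 0.37 with normexp and 0.42 with the median over probes.

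Windows of 5 kb called higher numbered 1 with the all-probe percentile (4 lower) and with the authors' values (2 lower). They also numbered 1 without the chromosome 12 tile, with SRN spots, without dim probes and with the median over probes. Normexp gave 2 lower. Of all regions, 64.5% were called lower with the all-probe percentile, 46.8% with the authors' values and 36.4% with normexp. This share was 28.5% without dim probes, 16.5% with the median over probes and 7.29% with SRN spots. Shares called higher ran from 19.7% with normexp to 25.7% with SRN spots. Shares over all 1 kb windows and probes are not given for these alternatives. Windows of 1 kb higher were 5 without the chromosome 12 tile and with SRN spots and 1 with normexp (3 lower); lower ones were 6 with the all-probe percentile and 2 with the median over probes, with the authors' values and without dim probes. Probes higher were 2 with the all-probe percentile (5 lower), 13 with SRN spots, 4 with normexp and with the trend prior, and 0 with the authors' values; without dim probes 0 were lower. Signs also turned in windows of 1 kb that were not called. The one from 29042001 was at 0.12 without the chromosome 12 tile, 0.20 with SRN spots, 0.41 without NPC 1 (-0.60 without NPC 2) and 0.19 without ESC 1. The one from 112644001 was at -0.17 with the percentile over all probes, -0.11 with normexp, -0.0023 with the authors' values and -0.27 without NPC 2 (0.71 without NPC 1). The one from 112648001 was at -0.054 with normexp and -0.46 without dim probes. The probe at 29043540 was at -0.27 with the percentile over all probes and -0.43 without NPC 2 (0.67 without NPC 1). Of the 960 regions, 0 were called without ESC 1 or without ESC 2 (192 and 188 higher at an unadjusted p under 0.05).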
